A study of Arabidopsis thaliana with 12 samples.

Results

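CCL (AT3G26740), CML30 (AT2G15680) and DI21 (AT4G15910) are 3 protein-coding nuclear genes of Arabidopsis thaliana, tied to daily rhythms, calcium signalling and drought. Each was measured by 1 probe that the platform's gene table assigns to that gene and to no other, so 3 of the 3439 features of the array, and 3 of its 692 single-gene features, are described here. The genes were chosen by their differences between prors2 and WT in these same 12 samples. Their levels and differences are therefore given as a description, with no test.

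Total RNA was measured in 6 samples of prors2 plants and 6 of wild-type (WT) plants, both of ecotype Columbia 0, with 1 array a sample. According to the labels, prors2 lacks prolyl tRNA synthetase, the enzyme that joins proline to its transfer RNA; a single mutant line stands for that defect. The sources used here give neither tissue nor age, growth conditions or time of harvest. Nothing in the labels places the samples in separate plants, so any spread or p-value covers these samples alone and may be technical, and the number of arrays limits the precision.

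CCL stands for CCR-like. Its messenger RNA cycles over the day and is broken down quickly, and its decay has been studied as a case of rhythmic control of transcript stability. CML30 belongs to the calmodulin-like proteins, which bind calcium through EF-hand motifs and pass calcium signals to other proteins. DI21, drought-induced 21, is a small protein of the late embryogenesis abundant class, and its transcript is known to accumulate under drought and abscisic acid.

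The deposited values are relative intensities on a linear scale from 0 to 100. The 2 genotypes differ across the whole array, which bears on every difference below. The median feature of an array stood between 0.279 and 0.305 in prors2 and between 0.135 and 0.169 in WT. Features at 0 numbered 262 to 316 in prors2 arrays and 368 to 396 in WT arrays. Differences are therefore given for the deposited values, with array sums made equal, after median centring and after quantile normalization, which gives all arrays the same distribution of values. The median log2 difference (prors2 minus WT) of the 3024 features tested was 0.76, 0.69, -0.06 and 0.07 under these scalings in that order. With quantile normalization, limma called 47.2% of the tested features at an adjusted p under 0.05, 24.8% higher and 22.4% lower in prors2. On the deposited values it called 66.7%, with equal sums 64.9%, after median centring 49% and, with the replicate number as a block on quantile-normalized values, 53.1%. After quantile normalization all 3 genes were among the calls, CCL and CML30 higher and DI21 lower. CML30 passed under the remaining scalings as well. CCL missed the threshold after median centring, and DI21 missed it without scaling and with array sums made equal. Since the choice of genes used this contrast, nothing is read from these calls.

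CML30 was higher in prors2 under each of the 4 scalings. Its relative intensity had a lowest value of 2.10, a median of 2.34 and a highest of 2.67 in prors2, against 0.576, 0.689 and 0.785 in WT. Every prors2 sample lay above every WT sample, with a wide gap between the groups. The means were 2.34 ± 0.185 in prors2 and 0.679 ± 0.0957 in WT (SD, n = 6 each). The log2 difference was 1.80 (SE 0.11) for the deposited values, 1.72 (SE 0.11) with equal sums, 0.97 (SE 0.099) after median centring and 1.59 (SE 0.095) after quantile normalization. The last corresponds to a level 3.02-fold higher in prors2; in bulk RNA, more cells that express a gene and more RNA per cell cannot be told apart. Its groups were apart under all 4 scalings. Among all tested features, groups that did not overlap with prors2 higher made up 37.2% for the deposited values, 34.5% with equal sums, 11.7% after median centring and 16% after quantile normalization.

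CCL was higher in prors2 on the deposited values, but by about as much as the array as a whole. It had a lowest relative intensity of 16.3, a median of 17.2 and a highest of 20.7 in prors2, against 9.17, 9.84 and 11.0 in WT. The groups did not overlap on this scale. Within prors2, replicates 5 and 6 stood at 20.5 and 20.7, above the range of 16.3 to 17.9 of the other 4 in that genotype. In WT, replicates 5 and 6 stood at 9.21 and 11.0, near both ends of the WT range. The means were 18.1 ± 2.03 in prors2 and 10.02 ± 0.838 in WT (SD, n = 6 each).

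The log2 difference of CCL was 0.85 (SE 0.10) for the deposited values and 0.77 (SE 0.10) with equal sums, each 0.08 above the median of all tested features. After median centring it was 0.02 (SE 0.11), with 3 replicate numbers above 0 and 3 below, and the groups overlapped over nearly their whole range. After quantile normalization it was 1.13 (SE 0.13), and the groups were apart again. CCL was thus higher under 3 of the 4 scalings, and after median centring its difference was smaller than its SE.

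DI21 was lower in prors2, with groups apart only after median centring or quantile normalization among the 4 scalings. Its relative intensity had a lowest value of 0.119, a median of 0.168 and a highest of 0.204 in prors2, against 0.141, 0.218 and 0.341 in WT. On this scale the groups overlapped, and 2 of 6 prors2 samples lay below all WT samples. The WT samples were uneven: replicates 3 and 4 stood at 0.341 and 0.320, replicates 1 and 2 at 0.242 and 0.193, and replicates 5 and 6 at 0.141 and 0.147. The means were 0.161 ± 0.0341 in prors2 and 0.231 ± 0.0856 in WT (SD, n = 6 each).

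The log2 difference of DI21 was -0.46 (SE 0.25) for the deposited values and -0.53 (SE 0.23) with equal sums, or 1.37-fold and 1.45-fold lower in prors2. It was -1.28 (SE 0.21) after median centring and -1.33 (SE 0.20) after quantile normalization, which is a level 2.51-fold lower in prors2. On those scalings all 6 prors2 samples lay below all WT samples. Over the whole array, 20.9% and 14.6% of tested features had groups apart in that direction. Relative to the median of all tested features, DI21 stood at -1.22 both on the deposited values and after median centring. One factor per array moves a gene and that median almost alike, so these values could hardly differ. After quantile normalization, which is no such factor, DI21 stood at -1.40 relative to that median.

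**Figure D1:**
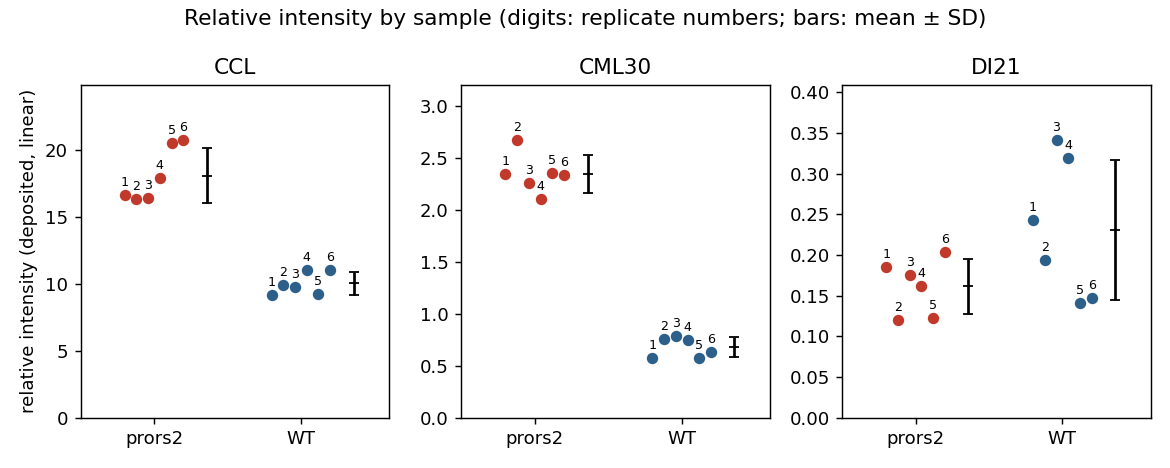
Relative intensity (deposited linear values, vertical axis from 0) of CCL, CML30 and DI21 in each prors2 and WT sample; points are samples with their replicate number, and bars are the mean ± SD of 6. CCL and CML30 groups are apart, with prors2 higher, while DI21 groups overlap between 0.141 and 0.204.

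**Figure D2:**
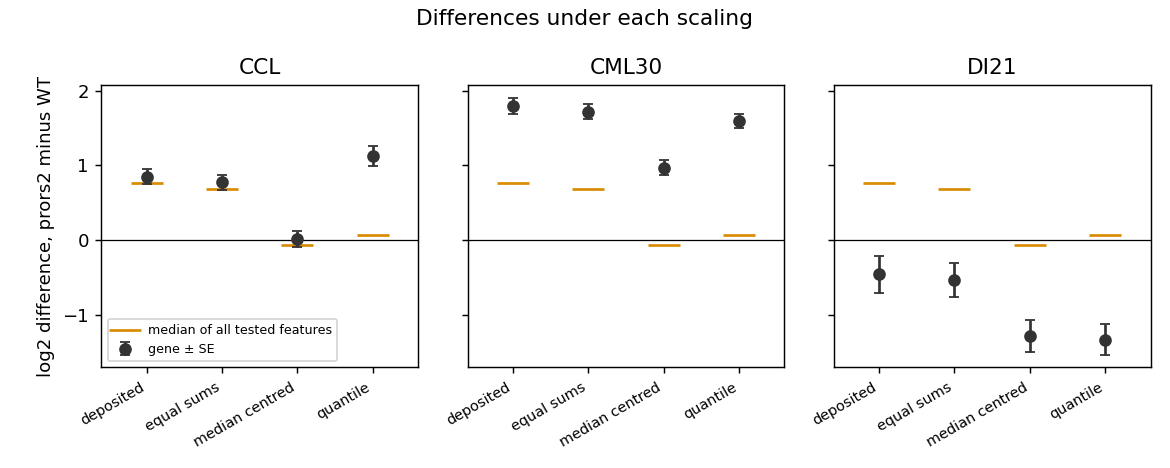
Log2 difference, prors2 minus WT, of each gene under 4 scalings (points, with the SE of the limma fit) beside the median of all 3024 tested features (orange dashes). CML30 lies above that median under each scaling and DI21 below it, whereas CCL lies about 0.08 above it except after quantile normalization. Scalings other than quantile normalization move a gene and that median almost alike.

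The place of a probe within its own array does not depend on any factor applied to the whole array. It does depend on the levels of all other features, whose median was higher in prors2 arrays. Quantile normalization uses nearly the same ranks, so the percentiles largely repeat that scaling and are no separate support. CML30 lay at the percentiles 93.7 to 95.3 of the 3439 features in prors2 arrays, against 83.0 to 85.8 in WT arrays. DI21 lay at 23.3 to 36.6 in prors2 and at 51.2 to 69.7 in WT, so its groups were apart by this measure although their intensities overlapped. CCL lay at 99.2 to 99.5 in prors2 and at 98.6 to 98.9 in WT. CCL groups were apart too, but within a narrow band at the bright end of the array. The share of all features apart by this measure was not counted, and the genes were chosen by their differences in these samples. After quantile normalization, 16% of tested features had groups apart with prors2 higher and 14.6% with prors2 lower.

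**Figure D3:**
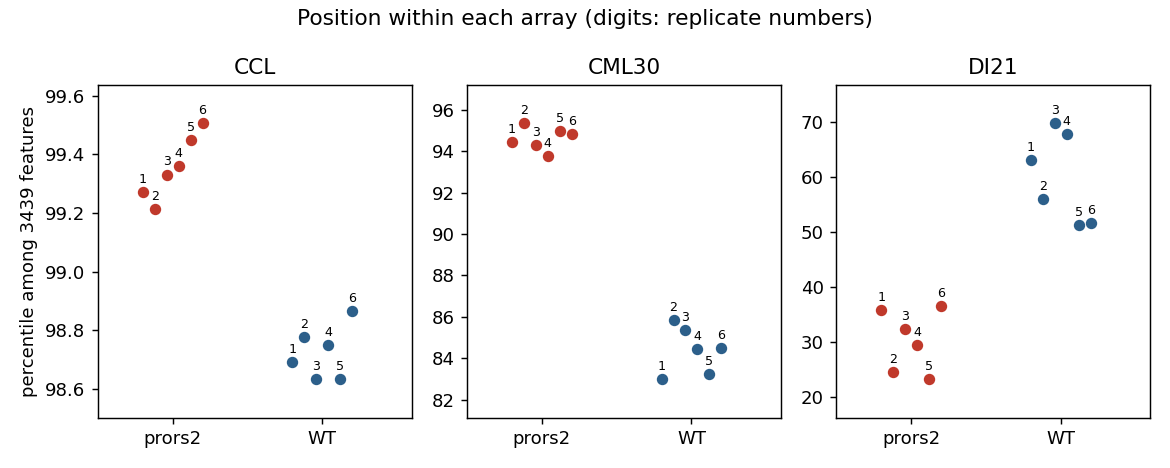
Percentile of each probe among the 3439 features of its own array, for each prors2 and WT sample (digits are replicate numbers; each panel has its own vertical axis, not starting at 0). Groups are apart for all 3 genes, by under 1 percentile point for CCL. The share of all features apart by this measure was not counted. After quantile normalization, which also rests on rank, 16% of tested features had groups apart with prors2 higher and 14.6% with prors2 lower.

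How far the genotypes differed also changed with brightness. Among the 2654 features above 0 in all samples, divided into 10 bins by mean brightness, the dimmest bin had a median log2 difference of 1.06 on the deposited values and the brightest bin one of 0.01. CCL belonged to the brightest bin and its difference of 0.85 was above those of 224 of the 266 features there. It ranked 30 by mean brightness, and of the 100 brightest features 55 were lower in prors2. CML30, in bin 9 counted from the dimmest, exceeded the median of 0.39 there by 1.41. DI21, in bin 4 with a median of 0.98, differed from it by -1.44. The difference of CCL exceeded the median of its own bin by 0.83 and that of all tested features by 0.08. Whether the change of the shift with brightness comes from the plants or from the measurement was not tested.

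**Figure D4:**
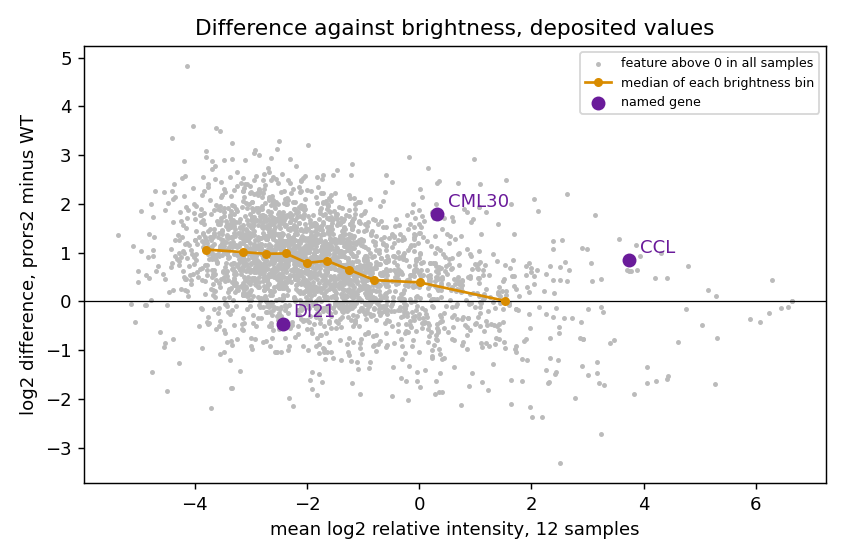
Log2 difference (prors2 minus WT, deposited values) against mean log2 relative intensity over 12 samples, for 2654 features above 0 in all samples (grey), with the median of each of 10 brightness bins (orange) and the 3 genes (purple). The orange line falls with brightness, at 1.06 in the dimmest bin and 0.01 in the brightest; CCL and CML30 lie above it and DI21 below.

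The gaps between the genes' log2 differences are the same on the deposited values, with equal sums and after median centring, since one factor per array cancels; quantile normalization is no such factor and widens or narrows them. CML30 differed from DI21 by 2.25 in its log2 difference between genotypes (SE 0.24), and by at least 1.42 in each of the 6 replicate numbers. CCL differed from DI21 by 1.31 (SE 0.26), between 0.43 and 1.71 by replicate number. CCL minus CML30 gave -0.95 (SE 0.12), with -1.16 to -0.77 by number, so CML30 had the larger difference in every number. After quantile normalization the gaps were 2.92 (SE 0.23) for CML30 and DI21 and 2.46 (SE 0.24) for CCL and DI21. For CCL and CML30 the gap was -0.46 (SE 0.13), and each gap had the same sign in all 6 numbers. The genes were chosen by their differences in these samples, so the gaps are a description.

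By replicate number, prors2 minus WT of the same number, CML30 ranged from 1.38 to 1.81 after quantile normalization and from 1.49 to 2.03 on the deposited values. CCL ranged from 0.75 to 1.48 after quantile normalization, with the highest values in numbers 5 and 6, and from 0.70 to 1.15 on the deposited values. DI21 was negative in 6 of 6 numbers after quantile normalization, from -1.72 to -0.58. On the deposited values DI21 was negative in 5 of 6, from -0.98, and was 0.48 in number 6, where prors2 stood at 0.204 and WT at 0.147. Its mean difference on this scale was -0.54 over numbers 1 and 2 and -0.97 over numbers 3 and 4. Over numbers 5 and 6 it was 0.14, and 0.056 with equal sums.

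**Figure D5:**
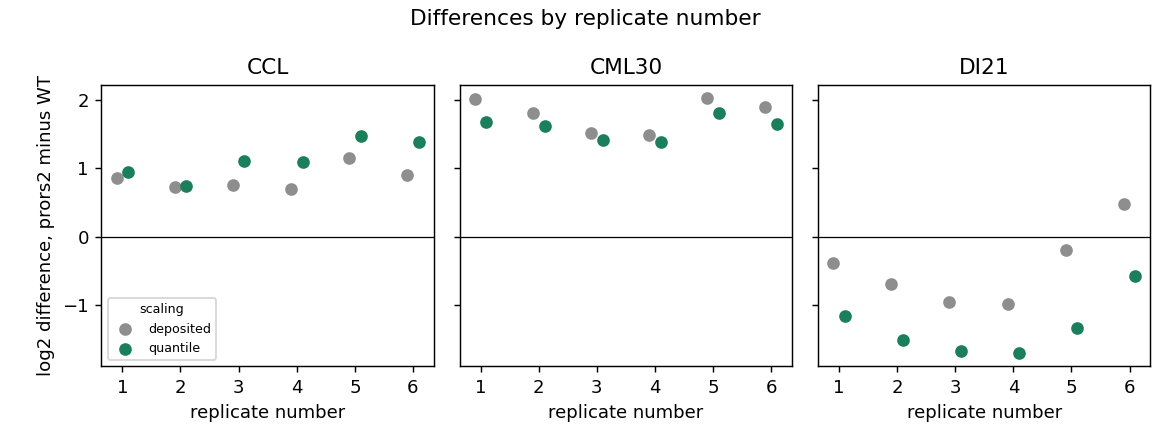
Log2 difference, prors2 minus WT, within each replicate number for the 3 genes, on deposited values (grey) and after quantile normalization (green). CCL and CML30 are above 0 in all numbers on both scales, and DI21 is below 0 except in number 6 on the deposited values.

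The spread within each genotype is given as a description, since choosing genes by their difference between the genotypes favours a small spread. After quantile normalization the SD of CML30 was 0.14 in prors2 and 0.11 in WT, lower than in all but 8.55% and 8.40% of the features above 0 in all samples. CCL had an SD of 0.28 in prors2 and 0.099 in WT, and its WT value was lower than all but 5.35% of features. DI21 had an SD of 0.34 in prors2, near the median over features of 0.31. In WT its SD of 0.38 was above the median of 0.27 and higher than that of 68.3% of features.

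Deviations from the group means of quantile-normalized values showed little in common between the 3 genes. Over the 12 samples, which share arrays and scaling, Pearson's r of these deviations was 0.13 for CCL and CML30, 0.03 for CCL and DI21 and -0.14 for CML30 and DI21. Without the 2 samples farthest from the median of the first gene the values were 0.45, -0.60 and 0.01, so these correlations change in size or sign with the samples kept.

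The features most like each gene were sought among 507 other single-gene features above 0 in all samples. Over the 12 quantile-normalized values, AT4G17070, AT4G31530 and AT5G15390 were nearest to CCL, with r between 0.971 and 0.974. AT3G09080, AT4G17070 and AT2G35450 were nearest to CML30, with r between 0.967 and 0.977. AT5G48440, AT5G34870 and AT1G51350 were nearest to DI21, with r between 0.916 and 0.933. The samples form 2 clusters by genotype, and the gap between them carries these correlations: 33 features had r over 0.9 with CCL, 41 with CML30 and 6 with DI21.

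With the group means taken out, other features came first. For CCL they were AT2G37510 (r = 0.87), PSAN (AT5G64040; r = 0.85), a subunit of photosystem I, and AT1G74730 (r = 0.84). Without the 2 farthest samples, prors2 replicates 6 and 2, these were 0.73, 0.80 and 0.55. PSAN had a mean of 3.31 in prors2 and 9.04 in WT, opposite to CCL in its difference between genotypes. For CML30 they were AT4G14380, AT2G26100 and AT2G26110, with r of 0.80, 0.74 and 0.74, and for DI21 AT4G25290, AT3G32940 and AT4G24160, with r of 0.78, 0.77 and 0.76. Leaving out the 2 farthest samples gave 0.62, 0.68 and 0.82 for CML30 and 0.69, 0.66 and 0.69 for DI21. These are the highest of 507 values each, and no gene stood among the first 3 both with and without the group means.

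Related genes were looked up by locus in 7 lists of 197 loci in all, and few were measured. By a single-gene probe, 4 loci were tested, of which 1 was called higher, 1 lower and 2 not, beside 24.8% called higher and 22.4% lower over all tested features. A share of 2 in 4 is near that background. Their median log2 difference was -0.22, against 0.07 over all tested features. No member was tested in the lists for drought, abscisic acid and late embryogenesis abundant proteins (40 loci) or plastid signalling and plastid kinases (21). The lists for oxylipin and jasmonate synthesis (11) and for senescence and darkness (10) also had 0 tested members. On probes assigned to several genes, 2 loci of the drought list and 1 of the plastid signalling list occur and are not named here. By a single-gene probe, no other gene of the DI21 class could be set beside DI21.

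In the list of calmodulins, other calmodulin-like proteins and further calcium sensors, from which CML30 was kept out, 1 of 61 loci was tested, and it was higher. CML41 (AT3G50770), another calmodulin-like protein, had a lowest relative intensity of 0.458, a median of 0.484 and a highest of 0.604 in prors2, against 0.143, 0.181 and 0.211 in WT. Every prors2 sample lay above every WT sample, as in 37.2% of all tested features on the deposited values. After quantile normalization CML41 rose by 0.80 on the log2 scale (SE 0.11, limma adjusted p = 1.11e-04). Limma also called it higher under the other 3 scalings, at 1.53 for the deposited values, 1.46 with equal sums and 0.71 after median centring. Over all tested features limma called 24.8% higher after quantile normalization. Under those other 3 scalings it called 1747, 1664 and 600 of the 3024 tested features higher. The log2 difference of CML30 exceeded that of CML41 by 0.26 on the deposited values (SE 0.13), in 5 of 6 replicate numbers, and by 0.79 after quantile normalization (SE 0.13), in 6 of 6. Their deviations from the group means had r = -0.17 over the 12 samples. A further 5 loci of the list occur on probes assigned to several genes and are not named here.

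In the list of clock and diurnal genes, 1 of 39 loci was tested. AT5G52660 had 0.0294 ± 0.0279 in prors2 and 0.0182 ± 0.0204 in WT (SD, n = 6 each), with 1 prors2 and 2 WT samples at 0. Its log2 difference over the samples above 0 was -0.05 (SE 1.16, limma adjusted p = 0.976) and 0.98 on the deposited values (limma adjusted p = 0.467). No other clock gene could be set beside CCL.

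Of 17 loci listed as plastid stress-protection proteins, 2 were tested. AT2G35490 had 0.463 ± 0.0628 in prors2 and 0.401 ± 0.0344 in WT (SD, n = 6 each), and fell by 0.42 on the log2 scale after quantile normalization (SE 0.13, limma adjusted p = 0.0206). On the deposited values its log2 difference was 0.20 and limma did not call it (adjusted p = 0.126), nor did it with equal sums, at 0.13 (adjusted p = 0.359). After median centring it was called lower, at -0.62. CHL (AT3G47860), the chloroplastic lipocalin, differed by -0.38 (SE 0.61, limma adjusted p = 0.649), with 2 prors2 samples and 1 WT sample at 0. On the deposited values its log2 difference was 0.66, so its sign turns with the scaling.

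A search of the reference names of single-gene probes for calcium, drought, salt, stress and circadian terms, made after the tables had been read, found 4 genes: CML30, CML41, DI21 and SIS (AT5G02020), named as a salt-induced serine-rich protein. SIS had 0.124 ± 0.0387 in prors2 and 0.0642 ± 0.0535 in WT (SD, n = 6 each). Its log2 difference was -0.12 after quantile normalization (SE 0.40, limma adjusted p = 0.833) and 0.85 on the deposited values (limma adjusted p = 0.0830). It thus passed on neither scale.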

How the data were processed

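The authors deposited a relative intensity per feature and sample. The sources used here state neither its denominator nor the background correction or software. Of 3439 features, 692 have 1 gene in the platform's table, 870 several and 1877 are not in it; 690 of the 692 matched the TAIR10.1 RefSeq table, which gave symbols. The array's genome build is unnamed, hence coordinates are left out, and sequences were not analysed here.

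Array medians differed by more than 5%, so values were put on the log2 scale, zeros left out, and quantile-normalized. Features with at least 4 of 6 values above 0 per group (3024) were fitted with limma 3.58.1 in R 4.3.3 (lmFit and eBayes, group alone, two-sided, Benjamini-Hochberg over all features, threshold 0.05). Folds of features with zeros use the samples above 0. The fit was tested on simulated data. The 3 genes and the lists were chosen with earlier results of these data known. Text names the 3 genes, up to 4 tested members per list, and the 3 features most like each gene by each measure; SIS was added afterwards.

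Same-numbered samples correlated between 0.212 and 0.399 in their deviations from the group means, and each of the 12 was nearest to the sample of its own number in the other genotype. By this check the numbers pair the samples, which the labels do not say. Array sums also grouped neighbouring numbers. In both genotypes numbers 3 and 4 had the highest sums and numbers 5 and 6 the lowest. The labels do not say whether the 6 arrays of a genotype are separate replicates or repeats of fewer, so n = 6 counts arrays. The fit above leaves the pairing out, as does every SE in the report except those given for the replicate block. The fit with the number as a block is an alternative.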

Additional observations from a re-analysis of the deposited data

Results flagged for a closer look

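Dixon's criterion was applied to 48 groups of 6 values (the 3 genes, the features most like them and the list members). In 2 groups a sample stood far from the other 5. Chance flags about 1 in 20 groups. Both flagged features were picked by their r with CCL or CML30, so that rate need not hold for them. AT1G74730, one of the features nearest to CCL, stood at 0.633 in prors2 replicate 6, against 0.180 to 0.318 in the other prors2 samples and 0.225 to 0.414 in WT. Without that sample its r with CCL was 0.70 in place of 0.84. AT2G26100, one of the features nearest to CML30, stood at 0.624 in prors2 replicate 2, against 0.162 to 0.223 in the other prors2 samples and 0.0876 to 0.182 in WT, and its r with CML30 was 0.77 without that sample. No value of CCL, CML30 or DI21 was set apart in this way.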

How the results depend on the processing

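Scaling moved the results most. Limma called 751 features higher and 676 lower after quantile normalization, 1747 and 269 without scaling, and 1664 and 298 with equal sums. The balance turned to lower calls with median centring (600 and 881), an offset before log2 (685 and 766), zeros at the lowest positive value (627 and 686) and cyclic loess (674 and 688). Without scaling, with equal sums and with median centring, CCL lay at 0.85, 0.77 and 0.021, against 1.13; CML30 at 1.80, 1.72 and 0.97, against 1.59; and DI21 at -0.46 and -0.53 on the first 2, against -1.33. The 1 call in the plastid stress-protection list became 0 without scaling and with equal sums. Cyclic loess, chosen after seeing the data, gave 1.06, 1.55 and -1.38 for CCL, CML30 and DI21.

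With the replicate block, limma called 846 higher and 759 lower, the 3 genes kept their differences with SEs of 0.12, 0.088 and 0.16, and no call in a list changed. Without each sample in turn, CCL ran from 1.05 to 1.20, CML30 from 1.54 to 1.65 and DI21 from -1.42 to -1.23, and 702 to 737 features were called higher and 627 to 665 lower. Other treatments of zeros, filters, a trend with robust variance and array weights moved the 3 genes by less than the SD between replicates. Where samples stood at 0 (AT5G52660, CHL and SIS), the difference rests on fewer samples.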
